A study of Homo sapiens with 9 samples.

Results

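The keratinocyte lineage transcription factors described here are TP63, KLF4, KLF5, GATA3, SOX2, SOX9, TFAP2A and TFAP2C. They were taken by gene symbol from the deposited tables, and all 8 were found, each once, among 58336 listed genes. RNA was sequenced from cells labelled as HaCaT, an immortalized line of human skin keratinocytes. The labels give 9 samples in 3 groups of 3. In the treated groups, cells received 5-aminolevulinic acid (ALA) at 0.5 mmol/L, from which they make a light-sensitive porphyrin, and red light of 635 ± 5 nm at 3 J/cm2, a low-dose photodynamic therapy (PDT). These cells were then kept for 12 h or for 48 h. The control group is labelled as having had no treatment. The labels give HaCaT, cultured in serum-containing medium, for all groups, and they do not say whether the replicates were separate cultures, so a p-value below measures the spread between libraries, which may be technical. The columns of 3 libraries, Nc1, Nc2 and Nc3, were taken to be the control group from their stem, which the labels do not explain. The other library columns carry stems that match no group in the labels. If Nc is the control group, these would be the treated libraries by elimination, but the stems do not give the times. They were left unused, a choice made here, so treated cells were not compared with untreated cells. The results give the level of the 8 factors in 3 libraries of untreated cells.

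The epidermis is renewed from a basal layer of dividing keratinocytes that is held by the transcription factor p63, and cells that leave this layer switch on a differentiation program in which the Krüppel-like factor KLF4 and GATA3 take part. KLF5 and the AP-2 factors (TFAP2A and TFAP2C) act with p63 at many epithelial enhancers. SOX9 marks stem cells of the hair follicle, and SOX2, a pluripotency factor, is largely absent from the normal epidermis between follicles but is found in many squamous carcinomas.

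Each of the 8 factors was detected, which here means 10 or more counts in every library. Of all 58336 listed genes, noncoding ones included, 12717 were detected by this rule. TP63 and KLF5 had the highest levels per length, SOX9 and TFAP2C came next with nearly equal levels, TFAP2A, GATA3 and KLF4 followed, and SOX2 was by far the lowest. Levels are given as FPKM, the deposited count scaled for the length of the gene and for the library. Mean FPKM ran from 22.4 ± 3.51 for TP63 to 0.488 ± 0.114 for SOX2 (SD, n = 3). Within a library, TP63 was between 36.2 and 73.6 times SOX2. Of the 28 pairs of factors, 1 pair, SOX9 and TFAP2C, had FPKM ranges that overlapped between libraries. The order was the same in Nc1, Nc2 and Nc3 except for that pair. Levels of different genes rest on the length assigned to each. This order holds for the deposited lengths, and the ranks between TP63 and SOX2 change with transcript lengths, as given with the AP-2 genes.

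**Figure D1:**
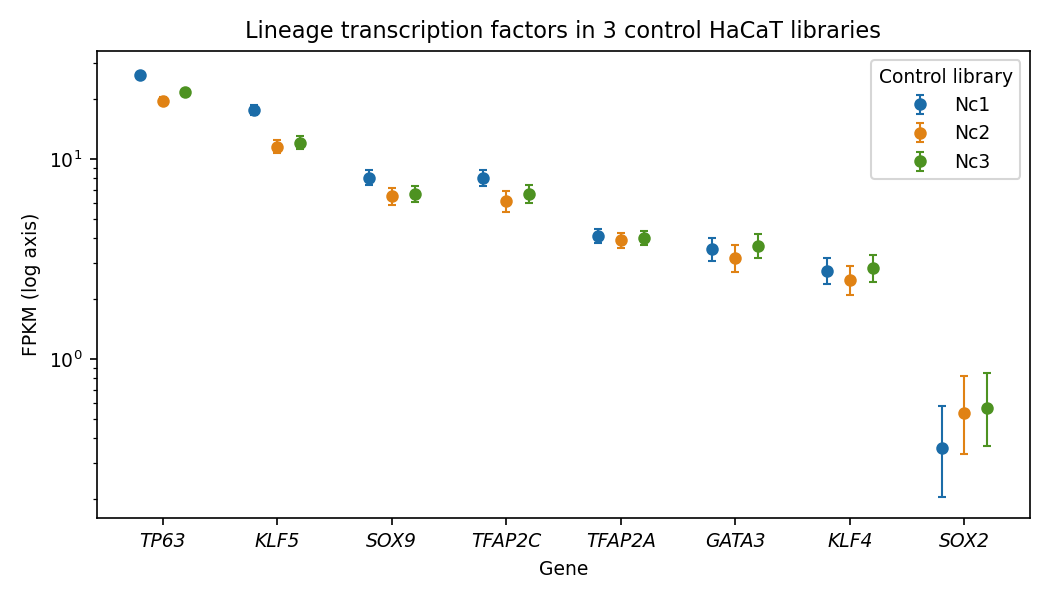
FPKM of the 8 lineage factors (log axis) in the control libraries Nc1, Nc2 and Nc3, ordered by mean. Points are libraries and bars are exact 95% Poisson intervals, which cover counting error only. TP63 lies between 19.5 and 26.3 FPKM and SOX2 between 0.358 and 0.569 FPKM.

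The libraries held 16354678 to 16989712 counts, so 3 counts, the limit that a count of 0 allows, correspond to 0.177 to 0.183 CPM (counts scaled to the library total). Nc1 and Nc2 stand apart from Nc3 in blood transcripts. Counts of HBB, the beta chain of hemoglobin, were 6700 in Nc1, 6665 in Nc2 and 2 in Nc3, and 6 markers of blood cells summed to 7474, 7612 and 18 counts. Markers of immune cells (6 genes) summed to 179, 116 and 23 counts. The part of this RNA in the values below was not tested, and the Nc3 value is printed for each factor. Of 11 keratinocyte markers, 10 were detected, among them KRT5 at 94.7 ± 5.99 FPKM (SD, n = 3). KRT14, the usual partner of KRT5 in the basal layer, was not, with 9, 8 and 15 counts. Counts were also found for markers of other cells, with some defining genes at 0. Sums over Nc1, Nc2 and Nc3 were 110, 127 and 145 for 8 fibroblast markers, of which COL1A1, COL1A2 and VIM were detected and COL3A1, DCN and LUM had no count. For 6 endothelial markers they were 73, 54 and 48, with CDH5 detected and KDR at 0. For 6 melanocyte markers they were 208, 144 and 151, mostly from MITF, with PMEL also detected and TYR and DCT at 0. Markers of Merkel and neuroendocrine cells (5 genes) summed to 20, 25 and 22, nearly all from SYP, with ATOH1, INSM1 and KRT20 at 0. The highest of these sums, 466, 349 and 434, belonged to 5 markers of respiratory or gut columnar cells and came almost wholly from FOXA1, at 6.22 ± 0.526 FPKM (SD, n = 3), while CDX2 had no count. The part of such cells in the values below was not tested. In bulk RNA, fewer cells of a type and less RNA per cell cannot be told apart.

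TP63 encodes p63, the factor without which mice form no stratified epidermis. It lies on the plus strand of chromosome 3 at 189631416 to 189897279 (GRCh38). Nc1 gave 3491 counts, Nc2 2255 and Nc3 2689, which are 26.3, 19.5 and 21.5 FPKM. Nc1 was high, and Nc2 and Nc3 lay closer together. The mean stood at percentile 83.1 of the 11348 detected protein-coding genes. TP63 was 35.5 ± 5.43 times its relative TP73 (SD over 3 libraries), which had 0.634 ± 0.0441 FPKM, and it was above TP73 in each library. GENCODE release 29 lists 12 protein-coding transcripts of TP63. Of these, 5 start at 189631427 to 189631516, where transcripts of the TAp63 type begin, and 7 start at 189789660 to 189789801, 158 kb downstream, where those of the ΔNp63 type begin. ΔNp63 is the form known to prevail in basal keratinocytes. A count per gene does not separate these starts, so the level of each form was not measured.

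KLF5, a zinc-finger factor of proliferating basal epithelial cells, lies on the plus strand of chromosome 13 at 73054976 to 73077542. Its counts were 1219 in Nc1, 695 in Nc2 and 788 in Nc3, or 17.6, 11.5 and 12.1 FPKM. Nc1 was again high, and the interval of counting error in Nc1, 16.6 to 18.6 FPKM, did not reach those of the other libraries. KLF4, which acts above the basal layer and is needed for the skin barrier in mice, lies on the minus strand of chromosome 9 at 107484852 to 107490482. It had 180, 141 and 174 counts, or 2.76, 2.48 and 2.83 FPKM. KLF4 was thus similar in the 3 libraries, and KLF5 exceeded it by 5.08 ± 1.12 times (SD, n = 3), or 4.26 times in Nc3. Of 17 genes of the KLF family, 11 were detected and 2, KLF14 and KLF15, had no count. KLF16 had 15.5 ± 2.55 FPKM and KLF10, a TGF-beta inducible gene, 11.9 ± 1.32 FPKM. KLF5 was 1.40 times KLF16 in Nc1 but 0.669 and 0.726 times in Nc2 and Nc3, so which KLF gene led depended on the library. KLF4 was seventh of the family by mean.

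GATA3, which in mouse skin acts in the inner root sheath of the hair and in the barrier, lies on the plus strand of chromosome 10 at 8045378 to 8075203. Nc1 gave 216 counts, Nc2 170 and Nc3 212, or 3.53, 3.19 and 3.68 FPKM. The values were close, with Nc2 the lowest. Of 6 GATA genes, 3 were detected, and GATA3 was the lowest of them in each library. It was 0.671 ± 0.0406 times GATA6, a factor best known from endoderm and heart, and 0.821 ± 0.0434 times GATA2, best known from blood progenitors (SD over 3 libraries). Those relatives had 5.17 ± 0.257 and 4.22 ± 0.188 FPKM. GATA1, the erythroid factor, had 1, 0 and 0 counts.

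SOX9, the hair follicle stem cell factor, lies on the plus strand of chromosome 17 at 72121020 to 72126420. SOX9 counts were 564 in Nc1, 397 in Nc2 and 440 in Nc3, or 8.05, 6.50 and 6.67 FPKM. Nc1 was the highest. SOX2 lies on the plus strand of chromosome 3 at 181711924 to 181714436. It had 16, 21 and 24 counts, or 0.358, 0.538 and 0.569 FPKM, with exact 95% Poisson intervals of 0.204 to 0.581, 0.333 to 0.823 and 0.365 to 0.847 FPKM. These intervals overlap, and the mean stood at percentile 8.11 of detected protein-coding genes, against percentile 59.7 for SOX9. SOX9 was 15.4 ± 6.13 times SOX2 (SD, n = 3). SOX2-OT, a noncoding gene that overlaps SOX2 on the same strand, had 1, 6 and 3 counts, 16.4% of the SOX2 counts, and reads of the overlap cannot be assigned to either gene with certainty. Of 19 SOX genes, 7 were detected, 5 had no count, and 12 had at most 3 counts in every library.

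SOX15, expressed in keratinocytes and related to SOX2 in its DNA-binding domain, was the leading SOX gene. It had 74.2, 84.2 and 83.8 FPKM in Nc1, Nc2 and Nc3 and made up 70.9% ± 2.46 of the summed FPKM of the family (SD, n = 3). SOX15 was between 147 and 207 times SOX2 and 11.6 ± 2.06 times SOX9. SOX7 and SOX13 averaged 9.56 ± 0.483 and 9.25 ± 0.660 FPKM. SOX9, at 0.738 ± 0.0506 times SOX7 and 0.766 ± 0.0973 times SOX13, came after these.

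**Figure D2:**
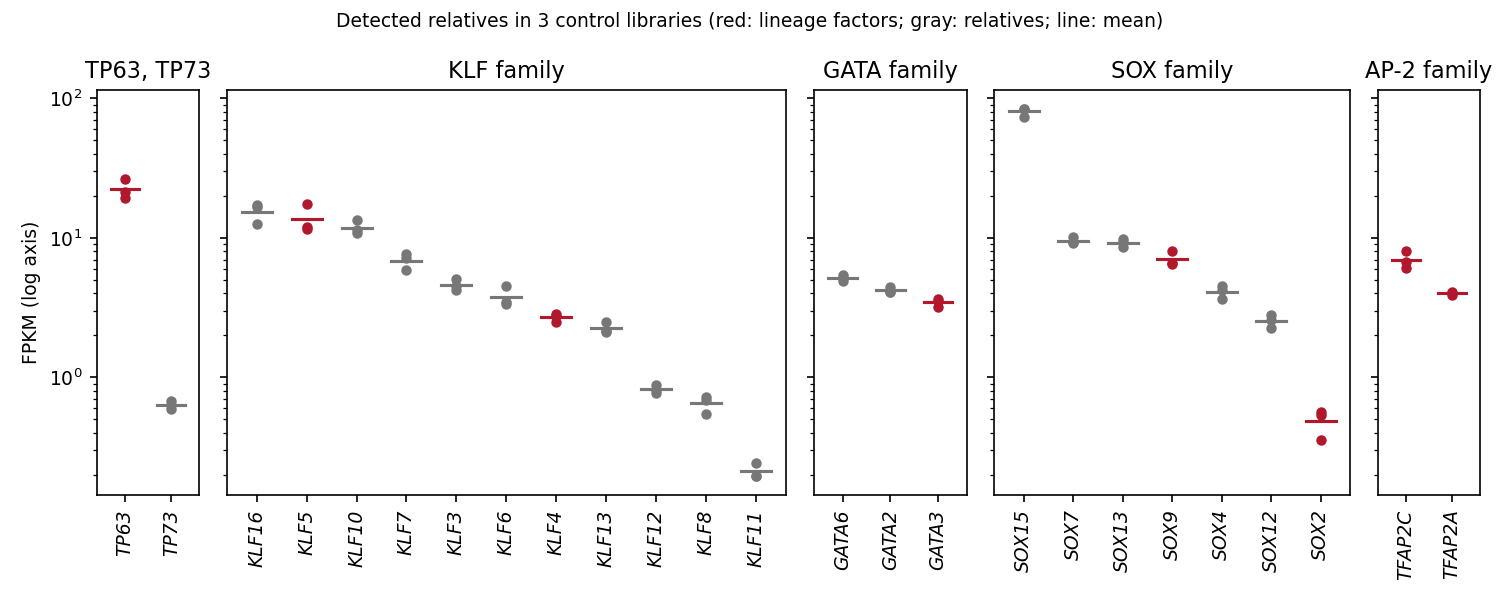
FPKM (log axis) of the detected genes of the KLF, GATA, SOX and AP-2 families, and of TP63 and TP73. Each point is 1 of the 3 control libraries and each line the mean, with lineage factors in red and relatives in gray. SOX15 stands far above SOX9 and SOX2, GATA3 is the lowest detected GATA gene, and the range of KLF5 overlaps those of KLF16 and KLF10.

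TFAP2A encodes AP-2 alpha, which binds many epidermal promoters, and lies on the minus strand of chromosome 6 at 10393186 to 10419659. TFAP2A counts were 608 in Nc1, 503 in Nc2 and 558 in Nc3, or 4.13, 3.92 and 4.02 FPKM. TFAP2C, the gene of AP-2 gamma, lies on the plus strand of chromosome 20 at 56629302 to 56639283. It had 429, 286 and 337 counts, or 8.02, 6.13 and 6.69 FPKM. TFAP2A was nearly even across libraries, and TFAP2C was highest in Nc1. Of 5 AP-2 genes, these were the 2 detected. TFAP2B and TFAP2D had no count, and TFAP2E had 2, 0 and 5.

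The order of the AP-2 genes depends on the length chosen. TFAP2C was 1.72 ± 0.196 times TFAP2A with the deposited gene lengths of 3005 and 8274 bases (SD, n = 3). It was 0.836 ± 0.0950 times TFAP2A with the longest coding transcripts of GENCODE release 29, 2866 and 3829 bases, and 0.369 ± 0.0419 times with the median coding transcripts, 1674 and 987 bases. Both alternatives were chosen after the data were seen. All annotated coding transcripts entered the medians, including short ones of 417 bases for TFAP2A and 482 bases for TFAP2C. TFAP2A has 19 annotated transcripts, and moved from rank 5 with the deposited length to rank 3 and rank 2. With the longest coding transcripts, TFAP2C, at 7.32 ± 1.38 CPM per kilobase, remained near SOX9, at 7.10 ± 1.19. With the median ones TFAP2C was at 12.5 ± 2.35 against 7.11 ± 1.19 for SOX9, KLF4 at 7.11 ± 0.786 was above GATA3 at 4.50 ± 0.503, and TFAP2A at 33.8 ± 2.55 was above KLF5 at 16.5 ± 4.82 on the same scale (SD, n = 3). TP63 stayed at rank 1 and SOX2 at rank 8 under all 3 lengths. The antisense genes TFAP2A-AS1 and TFAP2A-AS2 had 3, 8 and 10 and 11, 12 and 11 counts, 1.26% and 2.04% of the TFAP2A counts, and without a stated strand setting their reads cannot be told apart from those of TFAP2A.

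**Figure D3:**
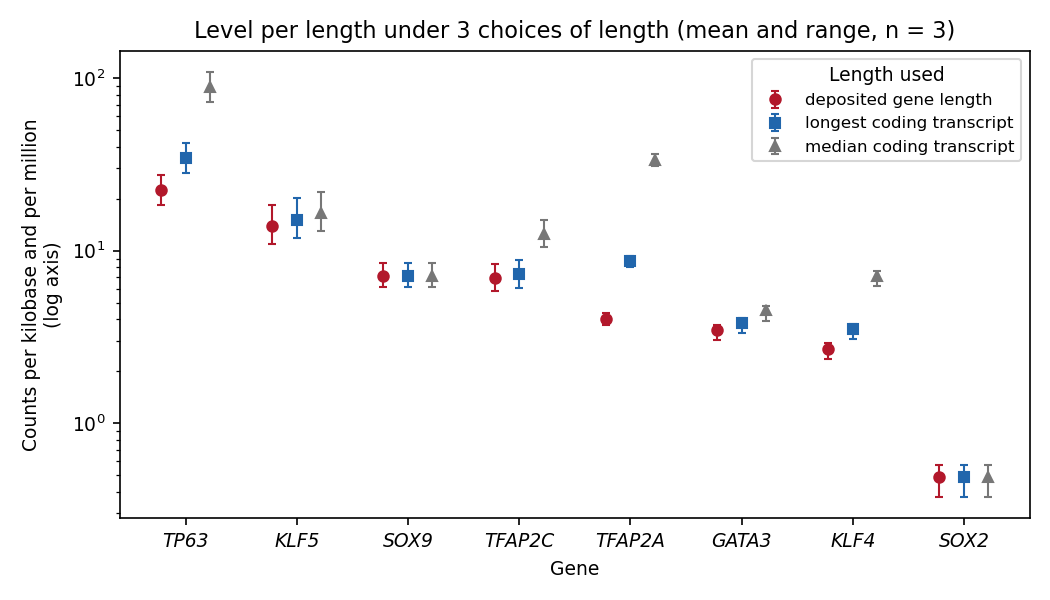
Counts scaled for length and library total, as the axis gives (log axis), of the 8 factors under 3 choices of length, the deposited gene length, the longest coding transcript and the median coding transcript. Symbols are means and bars the range over the 3 control libraries. TFAP2A moves the most, lying above TFAP2C under both transcript lengths, and SOX2 stays lowest.

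Starts of transcription are shown for TP63 and SOX2, the highest and the lowest of the factors, both on chromosome 3, and for KLF5, which has a pair of annotated starts that differ in base composition. RefSeq promoter windows of GRCh38.p14, 250 bases before to 50 after a start, were found for 6 of the 8 factors, 13 windows in all. Below are the 100 bases before each start, 5′ to 3′, all on the plus strand, with capitals for a CCAAT box (CCAAT) or a GC box (GGGCGG) on either strand. The windows are TP63 at chr3:189631289-189631388, KLF5 at chr13:73054876-73054975 for the upstream start and chr13:73058905-73059004 for the downstream start, and SOX2 at chr3:181711825-181711924.
TP63: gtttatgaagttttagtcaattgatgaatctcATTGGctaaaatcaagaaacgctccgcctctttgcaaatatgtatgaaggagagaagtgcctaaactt
KLF5 upstream start: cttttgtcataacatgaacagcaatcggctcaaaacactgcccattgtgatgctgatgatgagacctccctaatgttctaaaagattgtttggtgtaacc
KLF5 downstream start: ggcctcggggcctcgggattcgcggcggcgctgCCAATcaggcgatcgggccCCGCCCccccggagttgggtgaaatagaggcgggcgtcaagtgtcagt
SOX2: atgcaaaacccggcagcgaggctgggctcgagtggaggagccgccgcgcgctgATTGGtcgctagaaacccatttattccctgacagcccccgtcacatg

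The TP63 sequence is the upstream start, that of TAp63, and is 36% G or C. No window was found at the downstream starts of TP63, those of ΔNp63, so what is given here for TP63 covers the upstream start only. The KLF5 sequences are 41% G or C at the upstream start and 71% at the downstream start, where 12 CpG pairs lie in the 100 bases, against 1 at the upstream start. SOX2, the factor with the fewest counts, has 62% G or C and 9 CpG pairs. In the full windows of 300 bases, G and C made up 43.7% at TP63, 40.7% and 71.3% at the KLF5 starts and 63.3% at SOX2, against a median of 58.7% over 35116 windows. Of all windows, 34.6% hold CCAAT and 45.0% hold GGGCGG on either strand. The AP-2 motif GCCNNNGGC, in 23.2% of all windows, was found at KLF4, at 3 of the 6 GATA3 starts and at SOX2, but not in the windows of TP63, KLF5 or TFAP2A. TATAAA, in 11.5% of all windows, was found at TP63, the upstream KLF5 start, 1 GATA3 start and 1 TFAP2A start. Matches of different motifs may share letters. They describe letters in the reference sequence and no binding was measured.

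The spread between the 3 control libraries exceeded counting noise for 4 of the 8 factors, TP63, KLF5, TFAP2C and SOX9. A chi-square test per gene of a single rate in all libraries, adjusted by Benjamini-Hochberg over 13290 genes, gave adjusted p = 6.27e-21 for TP63, 9.1e-19 for KLF5, 0.0182 for TFAP2C and 0.0242 for SOX9. The same test called 56.9% of all genes tested, so a count of 4 of 8 is close to the background. GATA3, KLF4, SOX2 and TFAP2A did not pass, with adjusted p of 0.475, 0.600, 0.319 and 0.954 by the chi-square test. After scaling by TMM (trimmed mean of M-values), the coefficient of variation between libraries was 13.2% for TP63 and 21.9% for KLF5, where counting alone gives 1.89% and 3.33%. For SOX2 it was 25.3%, where counting gives 22.2%. SOX2 did not pass although Nc1 was at 0.620 times the mean of Nc2 and Nc3, so even a difference of that size was not called at this depth. With Nc1 left out, TP63 was the single factor that passed (adjusted p = 0.00929), and KLF5, SOX9 and TFAP2C had adjusted p of 0.638, 0.889 and 0.545. With Nc2 left out, TFAP2C did not pass (adjusted p = 0.0941).

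The factors that passed were highest in Nc1. Relative to the mean of Nc2 and Nc3 after TMM scaling, Nc1 was higher by 0.52 on the log2 scale for KLF5, 0.30 for TP63, 0.27 for TFAP2C and 0.23 for SOX9. TFAP2A, KLF4 and GATA3 were at 0.999, 0.998 and 0.988 times that mean, and SOX2 was at 0.620 times on 16 counts. Nc1 was the highest library for 4 of the 8 factors and for 42.6% of all 13290 genes, so this share is near the background too. Nc1 also differs from the other libraries by base composition and by transcript length. For genes averaging 100 counts or more, split into 5 bins of rising GC content, the median log2 difference of Nc1 was 0.28 in bin 1 and -0.34 in bin 5. TP63, with 42.5% GC in its longest transcript, lies in bin 2, whose median was 0.22. KLF5, SOX9, TFAP2C and TFAP2A lie in bin 3 (median 0.07), and GATA3 and KLF4 in bin 4 (median -0.16). Over 5 bins of rising transcript length, the median ran from -0.34 in bin 1 to 0.21 in bin 5. By length, TP63 lies in bin 4 (median 0.13), KLF5, SOX9 and TFAP2A in bin 3 (median 0.07), and TFAP2C, GATA3 and KLF4 in bin 2 (median -0.10). The parts of GC content and length in the higher values of Nc1 were not tested.

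**Figure D4:**
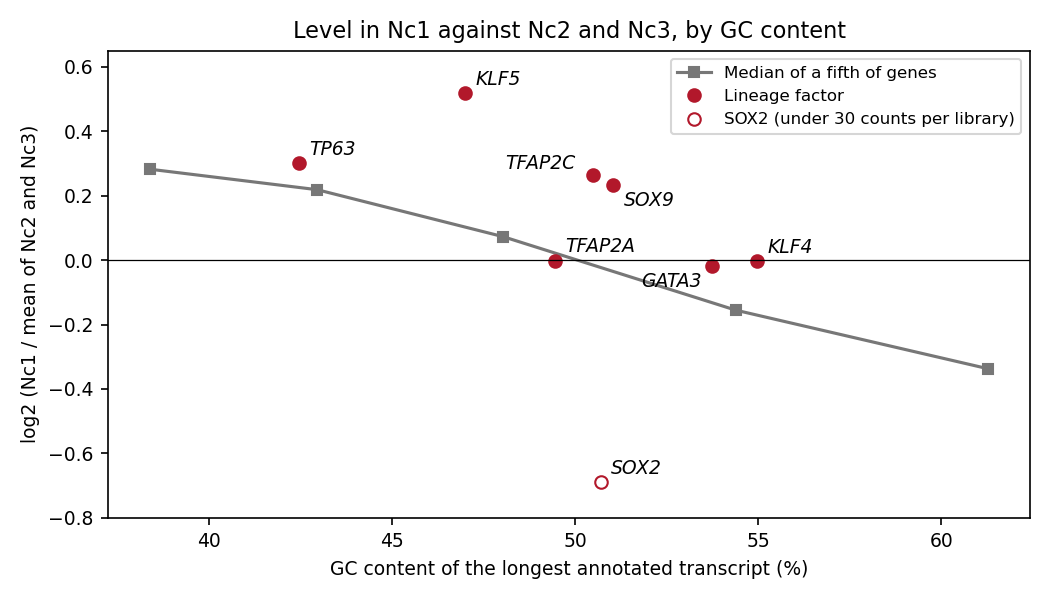
Log2 of the TMM-scaled level in Nc1 over the mean of Nc2 and Nc3, against the GC content of the longest annotated transcript. Red points are the lineage factors, with SOX2 open because of its few counts, and gray squares are medians of 5 GC bins over 9704 genes. The gray medians run from 0.28 down to -0.34, and KLF5 lies above the others at 0.52.

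Genes that p63 is known to control in the basal layer were nearly all present. Of 24, 23 were detected and KRT14 was the exception, where 12717 of all 58336 listed genes were detected. Among those named as examples after their values were seen, SFN, the gene of 14-3-3 sigma, had 672, 890 and 874 FPKM in Nc1, Nc2 and Nc3. ITGB1, an integrin gene, had 83.5, 60.8 and 66.3 FPKM. PERP, a desmosome gene, averaged 131 ± 11.9 FPKM and COL17A1, a hemidesmosome collagen, 114 ± 10.8 FPKM (SD, n = 3). The integrin genes ITGA6 and ITGB4 averaged 49.7 ± 7.44 and 57.7 ± 2.48 FPKM. The chi-square test called 20 of the 24, against 56.9% of all genes. Most of these targets had more than 100 counts per library, and of the 9706 genes averaging 100 counts or more the test called 6881. Nc1 was the highest library for 14 of the 24, against 42.6% of all genes, with a median log2 difference of 0.17. The parts of depth, GC content and length in these counts were not tested. ITGB1 was higher in Nc1, as TP63 was, whereas SFN was lower there.

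Of 31 other epithelial and epidermal transcription factors, 21 were detected, where 12717 of all 58336 listed genes were. By the chi-square test, 13 of the 23 tested varied between libraries, where 56.9% of all genes did. The share of varying factors is close to the background. ID1 and ID3, inhibitors of basic helix-loop-helix factors, had the highest levels, 291 ± 48.0 and 148 ± 29.4 FPKM. MYC averaged 49.0 ± 3.94 FPKM. CEBPD averaged 34.4 ± 7.06 FPKM, SNAI2 30.3 ± 4.28 FPKM and CEBPB 25.2 ± 2.96 FPKM. TP63, at 22.4 FPKM, was near ELF3 and EHF, epithelial ETS factors at 21.5 ± 2.50 and 21.2 ± 4.14 FPKM, and near the homeobox gene PITX1 at 21.1 ± 3.96 FPKM. GRHL2, a grainyhead factor of epithelial junctions, had 10.4, 7.56 and 8.61 FPKM. Its relative GRHL3, which acts in barrier formation, had 7, 17 and 17 counts and was not detected under the threshold of 10. ZNF750, a p63 target that drives terminal differentiation, and ELF5 had no count in any library.

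Differentiation genes were detected less often than the p63 targets. Of 16, 6 were detected, where 12717 of all 58336 listed genes were, so the share is not below the background. A further 7 had no count, including KRT1, the loricrin gene LOR, DSG1 and CDSN. KRT10 averaged 15.2 ± 1.19 FPKM and the involucrin gene IVL 4.29 ± 0.559 FPKM. The filaggrin gene FLG had 19, 15 and 25 counts and TGM1 had 10, 15 and 15. Of the 6 that could be tested, KRT10 alone varied between libraries by the chi-square test, which called 56.9% of all genes. KRT10 had 534, 545 and 544 counts, and the other 5 had between 10 and 185 counts per library. Keratins of simple and mucosal epithelia were abundant, with all 6 detected. KRT7 had 874, 1078 and 1122 FPKM in Nc1, Nc2 and Nc3, and KRT13 had 442, 585 and 570 FPKM. All 6 varied by the chi-square test and none was highest in Nc1, where 56.9% of all genes varied and 42.6% were highest in Nc1. Of the 9706 genes averaging 100 counts or more, 6881 varied.

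Among genes that act with SOX2 and KLF4 in pluripotent cells, MYC alone of 5 was detected in each library. POU5F1 had 14, 9 and 13 counts, and SOX2 had 16, 21 and 24. Per length, POU5F1 averaged 0.246 ± 0.0401 FPKM and SOX2 0.488 ± 0.114 FPKM (SD, n = 3), so both were rare and SOX2 was the higher in each library. NANOG, LIN28A and LIN28B had no count. In Nc3 alone, the library with few blood transcripts, 24 of the 24 p63 targets, 22 of the 31 transcription factors, 6 of the 16 differentiation genes, 6 of the 6 keratins and 2 of the 5 pluripotency genes reached 10 counts.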

How the data were processed

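The deposited table of counts holds whole-number reads per gene, not normalized by the authors. The deposited FPKM equal those counts divided by the deposited gene length and a constant of the library, 1.05, 0.949 and 1.00 times the totals of Nc1, Nc2 and Nc3. That scaling is not given in the sources used here, nor are the release of the annotation, the use of strand and the handling of reads that match several genes. FastQC, HISAT2 and StringTie are named, with the build GRCh38 but no version or role, in the submitters' processing notes. Libraries were read as pairs of 150 bases, per the labels' protocols. Of 9 library columns in each table, 6 (12 in both) were left out, since their names fit none of the labels. With this choice, the 7 planned comparisons between groups, with 63 settings, were not run. They include all treated against control libraries, which does not need the time of each stem. Neither was the search for genes of like pattern, which needs all 9 libraries.

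The members, the 5 gene lists and the 8 marker sets were chosen with earlier results of these data known, and relatives for ratios were picked after their values were seen. All members were to be named. Some genes of the lists and families are not reported here, while counts cover whole lists. When the tables were opened, their leading lines were seen, unused columns too. Scaling factors came from edgeR 4.0.16 (TMM) or, as an alternative, DESeq2 1.42.0, in R 4.3.3, and neither tool's test was run. Spread was tested per gene by a chi-square test over genes averaging 10 counts or more, with Benjamini-Hochberg adjustment at 0.05, and the script was tested on simulated counts. Coordinates of the 8 members are the same in GENCODE release 29 as in the tables. No pair of libraries agreed within sampling noise, since 2441 to 7030 genes differed. Poisson intervals and floors cover counting error only. Other steps used Python 3.11.15 with SciPy 1.17.1, NumPy 2.4.6, matplotlib 3.10.9 and pandas 2.3.3.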

Additional observations from a re-analysis of the deposited data

How the results depend on the processing

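No paired analysis was possible because only control libraries entered the results. Leaving out a library gave 1 to 4 varying factors (main count 4) and 2441 to 7030 varying genes (main count 7563), the lowest of each without Nc1. The cause was not tested. With library totals, DESeq2's median of ratios or a mean of at least 100 counts in place of the main settings, 4 factors varied each time, among 8217, 7567 and 6881 varying genes. SOX2, with too few counts, was not tested under the last of these. With 10 counts required in Nc3 alone, or 1 count in each library, 2 pluripotency genes were detected in place of 1. Counts of detected genes in the other lists stayed within 1.5 times under these settings and under 1 FPKM in each library. With 3 libraries, leaving a library out cannot move a mean by 1 SD, so that check of the mean FPKM could not fail. The mean of KLF5, 13.7 FPKM, became 11.8 without Nc1, 14.83 without Nc2 and 14.55 without Nc3. With the longest coding transcript as length, 4 of the 8 levels moved by more than 1 SD, and with the median one 5 did. Transcript lengths also turned the order of some factors. TFAP2C was 1.72 times TFAP2A with the deposited lengths but 0.836 and 0.369 times with the longest and the median coding transcripts, and KLF4 passed GATA3 with the median ones. Alternatives on length, on Nc3 alone and on detection were chosen after seeing the data. At 16 to 24 counts, depth limits SOX2 most.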
